A study of Homo sapiens with 8 samples.

Results

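The insulin-like growth factor (IGF) axis was examined through 10 genes in CFPAC-1 cells, a human line derived from pancreatic ductal adenocarcinoma. They are the 6 classical IGF binding proteins (IGFBP1 to IGFBP6), the related IGFBP7, the receptors IGF1R and IGF2R, and the ligand IGF2. Members were taken from the deposited table by gene symbol, 10 of 58870 genes, in 11 rows because IGF2 had a second identifier (ENSG00000284779.1) with 0 counts in all 8 libraries. The family was picked after IGFBP7 had been seen to be higher in the cells with the transgene. Every difference between the groups given for these 10 genes is therefore a description with a standard error (SE). How many of them pass the threshold used for all genes is printed once, beside the share of all genes that do, and is not evidence about the family. Tests are read only for other genes of the pathway, whose lists were also chosen with earlier results of these data known.

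All 8 samples were CFPAC-1 cells grown for 72 hours in IMDM with 10% fetal bovine serum and 1% penicillin-streptomycin and given no drug. In 4 samples the cells carried an empty vector, and in 4 they carried a transgene for ADRA2A, the alpha-2A adrenergic receptor, which couples mainly to Gi and lowers cyclic AMP. The comparison addresses what the added receptor gene does to gene expression. The labels name neither the promoter that drives the transgene nor whether each line was a clone or a pool, and they are silent on whether samples within a group were separate cultures, so p-values measure only the spread between these samples.

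IGF1 and IGF2 act through the tyrosine kinase receptor IGF1R, which recruits IRS and SHC adaptors and drives the PI3K-AKT and ERK pathways. IGF2R, also known as the cation-independent mannose 6-phosphate receptor, has no kinase: it removes IGF2 from the cell surface to lysosomes and sorts lysosomal enzymes. The binding proteins IGFBP1 to IGFBP6 hold IGFs outside the cell with high affinity, and proteases such as PAPPA release the ligand from them. IGFBP7 shares their N-terminal domain but binds IGFs weakly and is a secreted matrix-associated protein studied as a tumour suppressor and as a product of vessels and stroma.

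Libraries held between 14427035 and 17528915 counts. ADRA2A itself had 0 counts in all 4 empty-vector libraries and 112, 142, 154 and 172 counts in the ADRA2A libraries. Markers of ductal carcinoma cells such as EPCAM, KRT8 and KRT19 were abundant, with a summed level of all 8 markers between 12100 and 12700 CPM (counts scaled to the total of each library, with TMM factors between libraries) in the empty-vector libraries and between 11800 and 12900 CPM in the ADRA2A libraries. Of the 7 tested, EPCAM and KRT19 rose and KRT7, CDH1 and KRT18 fell, with log2 fold changes from -0.43 for KRT7 (edgeR adjusted p = 2.74e-09) to 0.20 for KRT19 (edgeR adjusted p = 7.64e-05). CFTR, one of these 8 markers, had at most 20 counts in a library and was not tested. Of the 8 fibroblast markers only COL1A1 was above 2 CPM in a group mean, and it carried the summed level of 78.2 to 82.6 CPM with the empty vector and 24.0 to 26.4 CPM with ADRA2A. The endothelial markers CLDN5 and TEK had 0 counts in every library and CDH5 at most 1, and the 6 endothelial markers together stood between 2.05 and 2.71 CPM in the empty-vector libraries and between 2.64 and 3.35 CPM in the ADRA2A libraries. Within that sum PECAM1 rose from 0.773 to 2.44 CPM (edgeR adjusted p = 8.12e-05) and KDR fell from 1.23 to 0.482 CPM (edgeR adjusted p = 0.00234), with at most 45 and 21 counts in a library. Leukocyte markers summed to 120 to 133 CPM and 197 to 210 CPM, nearly all of it LYZ and CD68, while CD3E had 0 counts and PTPRC at most 4. Whether these markers have a part in the differences described for the IGF axis was not tested. In these bulk samples, fewer cells expressing a gene and less of its RNA per cell cannot be told apart.

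Promoter sequence was at hand for 7 of the 10 genes in RefSeq (GRCh38.p14), and not for IGFBP1, IGFBP7 and IGF2. The 3 windows printed here cover the 250 bases before the RefSeq start of IGFBP3, the abundant binding protein that was higher with ADRA2A, and of IGFBP4 and IGFBP5, which were both lower by very different amounts. The windows of IGFBP4 and IGFBP5 end where the GENCODE gene begins. That of IGFBP3 lies inside the GENCODE gene, which begins further upstream at 45921874. Capitals mark matches on either strand to the GC box GGGCGG and to the TATA box TATAAA, the only motifs of the 6 searched that occurred in these 3 windows.
IGFBP3 (chr7:45921273-45921522, minus strand): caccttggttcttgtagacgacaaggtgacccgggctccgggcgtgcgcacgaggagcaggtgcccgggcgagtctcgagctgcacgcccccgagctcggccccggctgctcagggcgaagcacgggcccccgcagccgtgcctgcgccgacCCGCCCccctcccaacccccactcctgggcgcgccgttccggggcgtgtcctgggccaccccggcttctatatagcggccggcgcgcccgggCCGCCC
IGFBP4 (chr17:40443200-40443449, plus strand): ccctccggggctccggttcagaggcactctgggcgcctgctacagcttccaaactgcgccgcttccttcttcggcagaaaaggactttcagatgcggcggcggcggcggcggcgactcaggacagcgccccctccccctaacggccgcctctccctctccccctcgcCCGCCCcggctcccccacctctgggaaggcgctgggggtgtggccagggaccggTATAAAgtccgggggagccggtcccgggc
IGFBP5 (chr2:216695550-216695799, minus strand): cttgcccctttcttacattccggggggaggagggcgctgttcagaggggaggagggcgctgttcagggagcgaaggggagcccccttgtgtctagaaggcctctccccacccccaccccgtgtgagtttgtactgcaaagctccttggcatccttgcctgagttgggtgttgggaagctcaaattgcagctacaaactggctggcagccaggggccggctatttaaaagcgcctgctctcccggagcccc

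The window of IGFBP3 held 2 GC boxes, from 98 to 93 and from 6 to 1 bases before the start. That of IGFBP4 held a GC box from 83 to 78 bases and a TATA box from 29 to 24 bases before the start. IGFBP5 matched none of the 6 motifs. Each motif was searched only by its letters as printed, so variants, such as other forms of a TATA box, were not marked in any window. Across 35116 RefSeq promoter windows of the same 250 bases, 42.6% held a GC box and 10.7% a TATA box. The other motifs searched on both strands were the insulin response core CAAAACAA (1.46% of windows), the cyclic AMP response element TGACGTCA (1.65%), its core TGACG (21.2%), which lies within the full element, and the AP-1 site TGANTCA (6.57%). Base composition separated the 3 windows: GC content was 76.0% with 32 CpG dinucleotides for IGFBP3, 71.6% with 24 for IGFBP4, and 61.2% with 8 for IGFBP5, against medians of 58.0% and 11 over all windows. No data on binding or methylation were analysed, so these matches describe sequence only.

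Of the 10 genes, 9 passed the filter on low counts. IGFBP7, IGFBP1, IGFBP3 and IGF1R were higher in the ADRA2A cells, IGFBP5, IGF2, IGFBP6 and IGFBP4 were lower, and IGF2R was nearly level. The fitted log2 fold changes ran from -2.82 for IGFBP5 to 1.19 for IGFBP7. In edgeR's quasi-likelihood test, 8 of the 9 were below an adjusted p-value (Benjamini-Hochberg) of 0.05, 4 in each direction, where 42.7% of the 14785 genes tested did (21.6% higher, 21.1% lower). For those 8 genes no library of one group lay within the range of the other, as for 39.2% of all genes tested. Because the family was picked from this contrast, nothing is read from these shares. The median absolute log2 fold change was 0.62 over the 9 genes and 0.18 over all genes tested, and 3 of the 9 (IGFBP5, IGF2 and IGFBP7) lay at or beyond 1 in absolute value, as did 4.77% of all genes tested, or 4.66% when the adjusted p-value was also required. IGFBP1 lay just under that value at 0.996, and ran from 0.979 to 1.025 when each library was left out in turn.

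**Figure D1:**
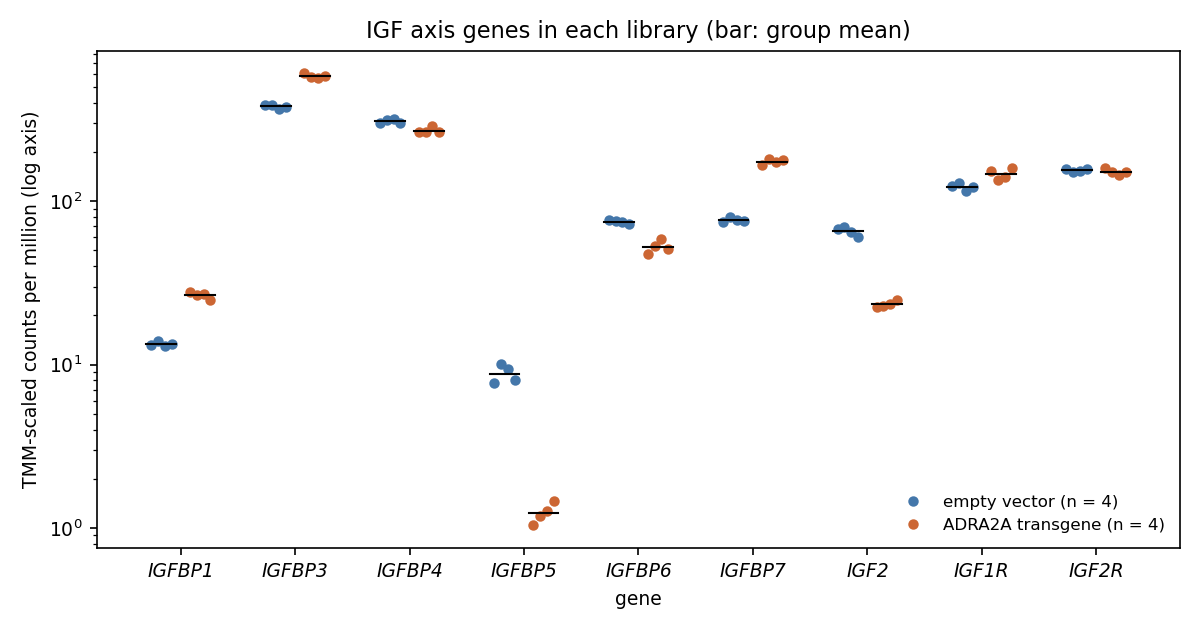
TMM-scaled CPM (log axis) of the 9 tested IGF axis genes in each of the 4 empty-vector libraries (blue) and 4 ADRA2A libraries (orange), with a bar at each group mean. The groups are apart for every gene shown except IGF2R, and IGFBP5 lies lowest, between 1.04 and 1.46 CPM with ADRA2A. Heights of different genes are not corrected for gene length.

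**Figure D2:**
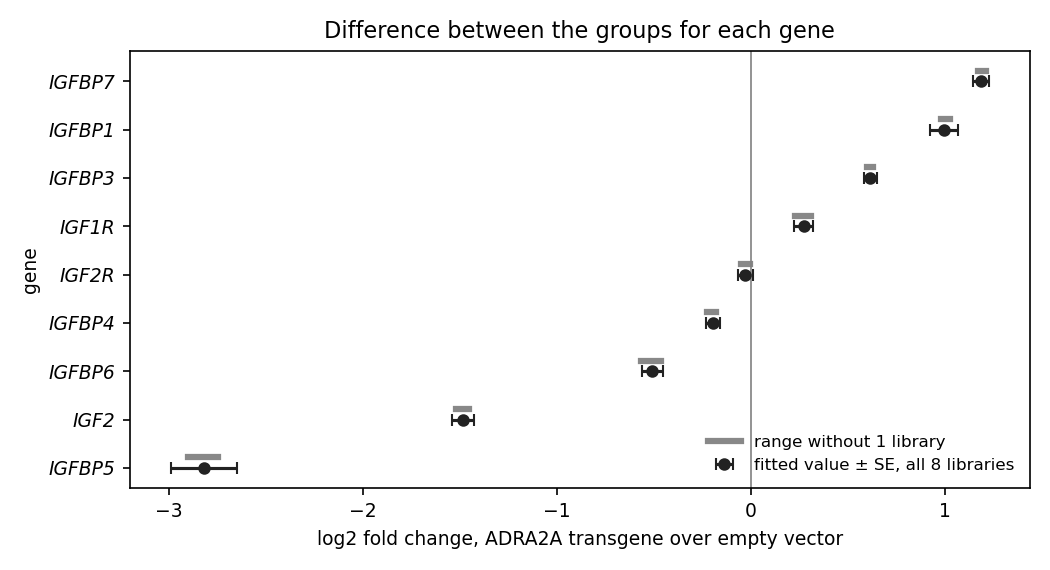
Fitted log2 fold change of each tested IGF axis gene, ADRA2A over empty vector, with its SE (points and error bars), and its range when each of the 8 libraries was left out in turn (grey bars). IGFBP7 has the highest value, 1.19, and IGFBP5 the lowest, -2.82, and no grey bar crosses 0. That of IGF2R comes close, from -0.051 to -0.005, and the error bar of IGF2R does cross 0.

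IGFBP7 (ENSG00000163453.11; chromosome 4, 57030773 to 57110385, minus strand, GRCh38) had 74.8, 79.8, 76.4 and 76.1 CPM in empty-vector replicates 1 to 4, and 165.5, 180.2, 174.4 and 178.0 CPM in ADRA2A replicates 1 to 4. The lowest ADRA2A library was thus above the highest empty-vector library by more than the whole range within either group. The means were 76.8 ± 2.15 and 174.5 ± 6.50 CPM (SD, n = 4 each). The fitted log2 fold change was 1.19 with an SE of 0.04, or 2.27-fold. The 3′ end of IGFBP7 overlaps the end of POLR2B, an RNA polymerase II subunit gene on the opposite strand. POLR2B fell slightly (log2 fold change -0.12 ± 0.03, SE; edgeR adjusted p = 0.00681), and IGFBP7-AS1, the antisense transcript, had at most 1 count in a library.

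IGFBP1 and IGFBP3 lie end to end on chromosome 7, 18.6 kb apart and on opposite strands, and both were higher in the ADRA2A cells. IGFBP1 (ENSG00000146678.10; 45888360 to 45893660, plus strand) encodes a binding protein that insulin represses in liver through FOXO factors. It had 13.18, 13.84, 13.01 and 13.35 CPM in the empty-vector libraries and 27.61, 26.73, 27.09 and 24.98 CPM in the ADRA2A libraries. Every ADRA2A library lay well above the empty-vector libraries, and the fitted log2 fold change was 0.996 with an SE of 0.07. IGFBP3 (ENSG00000146674.15; 45912245 to 45921874, minus strand), the main carrier of IGFs in serum, had 390.1, 386.2, 366.1 and 377.1 CPM with the empty vector. With ADRA2A it had 605.9, 577.3, 563.7 and 580.5 CPM, a log2 fold change of 0.62 with an SE of 0.03. All 4 ADRA2A libraries again lay above all 4 empty-vector libraries.

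IGFBP5 and IGFBP2 form the matching pair on chromosome 2, 7.67 kb apart and also on opposite strands. IGFBP5 (ENSG00000115461.5; 216672105 to 216695549, minus strand), which binds matrix as well as IGFs, had 7.67, 10.1, 9.41 and 7.99 CPM in the empty-vector libraries. In the ADRA2A libraries it had 1.04, 1.19, 1.26 and 1.46 CPM, from 15, 18, 22 and 23 counts. This was the largest difference of the 9 tested genes, a log2 fold change of -2.82 with an SE of 0.17, or 7.05-fold lower. IGFBP2 (ENSG00000115457.10; 216632828 to 216664436, plus strand) was close to silent in both groups, with 1 count over the 4 empty-vector libraries and 3 counts over the 4 ADRA2A libraries. It was not tested, and no fold is given at that depth.

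IGFBP6 and IGFBP4 were lower in the ADRA2A cells by smaller amounts. IGFBP6 (ENSG00000167779.9; chromosome 12, 53097436 to 53102345, plus strand) prefers IGF2 to IGF1 as its ligand. It had 76.2, 75.8, 74.8 and 72.8 CPM with the empty vector and 47.5, 53.1, 58.4 and 51.3 CPM with ADRA2A. The ADRA2A libraries were more spread, with a coefficient of variation of 8.55% against 2.06%, but all lay below the empty-vector libraries, and the log2 fold change was -0.51 with an SE of 0.05. IGFBP4 (ENSG00000141753.7; chromosome 17, 40443450 to 40457725, plus strand) encodes a substrate of the protease PAPPA. It had 302.3, 313.5, 317.8 and 301.3 CPM with the empty vector and 263.3, 263.6, 286.6 and 266.1 CPM with ADRA2A. ADRA2A replicate 3 stood closer to the empty-vector libraries than the other 3 did, and the log2 fold change of IGFBP4 was -0.19 with an SE of 0.04.

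The ligand gene was lower in the ADRA2A cells. IGF2 (ENSG00000167244.20; chromosome 11, 2129112 to 2158391, minus strand), an imprinted fetal growth factor gene, had 67.3, 69.7, 64.7 and 60.5 CPM in the empty-vector libraries. It had 22.6, 22.8, 23.6 and 24.7 CPM in the ADRA2A libraries. The groups were far apart, with a log2 fold change of -1.48 and an SE of 0.06, or 2.80-fold lower. The INS-IGF2 readthrough transcript had 0 counts in every library, and the antisense IGF2-AS had at most 6. MIR483, a microRNA gene that overlaps IGF2 on the same strand, also had 0 counts, which is not read as absence of the microRNA. AC132217.1, a non-coding transcript annotated inside the 3′ end of IGF2 on the same strand, fell from 1.67 ± 0.34 to 0.287 ± 0.219 CPM (SD, n = 4 each; log2 fold change -2.51 ± 0.44, SE; edgeR adjusted p = 0.000107). Its reads may be shared with IGF2.

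Between the receptors, IGF1R was higher and IGF2R differed little. IGF1R (ENSG00000140443.14; chromosome 15, 98648539 to 98964530, plus strand) had 123.2, 128.5, 115.7 and 121.9 CPM with the empty vector and 153.6, 135.3, 141.2 and 160.4 CPM with ADRA2A. The lowest ADRA2A library was only slightly above the highest empty-vector library, and the log2 fold change was 0.27 with an SE of 0.05. IGF2R (ENSG00000197081.13; chromosome 6, 159969082 to 160113507, plus strand) had 156.6, 150.6, 153.0 and 156.9 CPM with the empty vector. Its ADRA2A libraries had 159.4, 151.3, 144.6 and 150.4 CPM and overlapped with them. The log2 fold change of IGF2R was -0.03 with an SE of 0.04.

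Replicates of these genes were tight. The biological coefficient of variation fitted for each gene was between 3.48% (IGFBP3) and 4.86% (IGFBP1) for 8 of the 9 tested genes and 10.83% for IGFBP5, the least counted of them. The median over all genes tested was 5.73%.

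Levels of different genes can be compared only per length, so CPM was divided by the merged exon length of each gene in kilobases. In the empty-vector cells IGFBP4 stood highest with 140 ± 3.72 CPM per kb, followed by IGFBP3 with 83.1 ± 2.33, IGFBP6 with 55.7 ± 1.14 and IGFBP7 with 39.8 ± 1.11 CPM per kb (SD, n = 4). IGF2 (9.17 ± 0.55), IGF1R (8.77 ± 0.38) and IGFBP1 (8.13 ± 0.22 CPM per kb) came next, and each overlapped with its neighbour in this order. IGF2R had 6.82 ± 0.13 and IGFBP5 1.36 ± 0.18 CPM per kb, and IGFBP2 was at the bottom. No other neighbours in the order overlapped over the 4 libraries.

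In the ADRA2A cells the order of levels was different. IGFBP3 stood at 127 ± 3.85 and IGFBP4 at 122 ± 5.08 CPM per kb (SD, n = 4), and these overlapped. IGFBP7 followed with 90.4 ± 3.37 CPM per kb, ahead of IGFBP6 with 39.1 ± 3.34. IGFBP1 came next with 16.2 ± 0.69, then IGF1R with 10.6 ± 0.82, IGF2R with 6.70 ± 0.27 and IGF2 with 3.28 ± 0.13 CPM per kb. IGFBP5 (0.191 ± 0.027 CPM per kb) and IGFBP2 were again last. The order depended on the length used. Per kilobase of the longest transcript, the mean of IGFBP3 stood above that of IGFBP4 in both groups. In the empty-vector cells these means were 144 and 140 CPM per kb, and their libraries overlapped. IGFBP7 and IGFBP4 both stood at 122 CPM per kb in the ADRA2A cells. Lower in the order of the empty-vector cells, IGF2R then stood at 10.8 CPM per kb, above IGF1R at 10.0 and IGFBP1 at 8.34.

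Summed over the 7 binding proteins, the level was 328 ± 5.09 CPM per kb with the empty vector and 396 ± 5.81 CPM per kb with ADRA2A (SD, n = 4 each), 1.21-fold higher. IGFBP7 made up 12.1% ± 0.23 of that sum in the empty-vector cells and 22.9% ± 0.80 in the ADRA2A cells (SD, n = 4 each). IGFBP3 went from 25.3% ± 0.73 to 32.2% ± 1.41. The shares of IGFBP4, from 42.7% ± 0.82 to 30.9% ± 0.86, and IGFBP6, from between 16.8% and 17.3% to 9.87% ± 0.70, were smaller with ADRA2A (SD, n = 4 each). Per kilobase of the longest transcript, IGFBP3 had a larger mean share than IGFBP4 with the empty vector, at 35.1% against 34.0%. The libraries overlapped there, from 33.9% to 36.0% for IGFBP3 and from 33.3% to 35.1% for IGFBP4. With ADRA2A these shares were 41.9% and 23.2%. IGFBP1 held 2.48% and 4.10% of the sum, and IGFBP5 0.414% and 0.0483%.

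**Figure D3:**
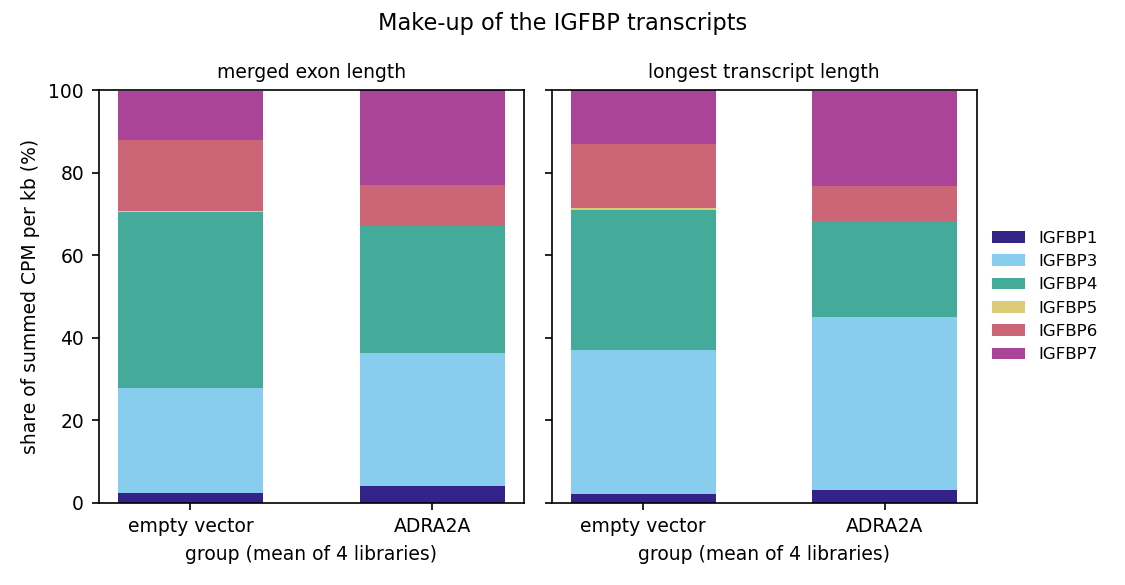
Mean share (%) of each IGFBP in the summed per-length level of the 7 binding proteins in the 4 empty-vector and the 4 ADRA2A libraries, with CPM divided by the merged exon length (left) or by the longest transcript (right). IGFBP2, at under 0.01%, is not drawn. By either length the IGFBP7 share is larger with ADRA2A, 22.9% against 12.1% by merged exons and 23.2% against 13.1% by the longest transcript.

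Differences of neighbouring genes were set beside those of the 8 members with at least 10 CPM in a group, using the 5 tested genes on either side. Around IGFBP7 the median log2 fold change of the 10 neighbours, which span 11613 kb, was -0.19, opposite in sign to IGFBP7. Of these neighbours, 0 were higher and 5 lower at an edgeR adjusted p-value under 0.05 (21.6% and 21.1% of all genes tested). POLR2B borders IGFBP7 on one side, and the nearest tested gene on the other side, ADGRL3, an adhesion receptor gene 4090 kb away, fell from 5.81 to 1.40 CPM (log2 fold change -2.06 ± 0.20, SE; edgeR adjusted p = 8.32e-08). IGFBP6 showed the reverse arrangement, with a median of 0.24, 6 neighbours higher and 1 (KRT18) lower. The nearest on one side, CSAD, rose (log2 fold change 0.63 ± 0.11, SE; edgeR adjusted p = 0.000161), and IGFBP6 itself was lower.

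The neighbours of IGF2 had a median of -0.04, with 2 higher and 1 (AC132217.1) lower at an edgeR adjusted p-value under 0.05. The 2 that rose were KCNQ1 (log2 fold change 1.74 ± 0.31, SE; edgeR adjusted p = 0.000147) and AC068580.4 (log2 fold change 0.68 ± 0.10, SE; edgeR adjusted p = 1.8e-05). MRPL23 on one side was at -0.07 ± 0.11 (log2 fold change, SE; edgeR adjusted p = 0.62). IGFBP1 and IGFBP3 count among each other's neighbours and share most of the others, with a median of 0.06 for each. Around each, 3 of the 10 neighbours were higher, the other gene of the pair among them, and 4 were lower. GTF2IP13 beyond IGFBP1 did not pass the test (log2 fold change 0.16 ± 0.13, SE; edgeR adjusted p = 0.312). Beyond IGFBP3, AC011294.1, 752 kb away and with at most 51 counts in a library, rose (log2 fold change 0.63 ± 0.22, SE; edgeR adjusted p = 0.0263). For IGF1R the median was 0.12, with 3 neighbours higher and 0 lower. FAM169B on one side rose (log2 fold change 1.63 ± 0.27, SE; edgeR adjusted p = 7.32e-05), and SYNM on the other was at -0.22 ± 0.13 (edgeR adjusted p = 0.176). The medians around IGFBP4 and IGF2R were -0.09 and -0.14, with 0 higher and 4 lower for IGFBP4 and 1 higher and 3 lower for IGF2R. TOP2A, next to IGFBP4, fell slightly (log2 fold change -0.16 ± 0.03, SE; edgeR adjusted p = 0.000124).

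**Figure D4:**
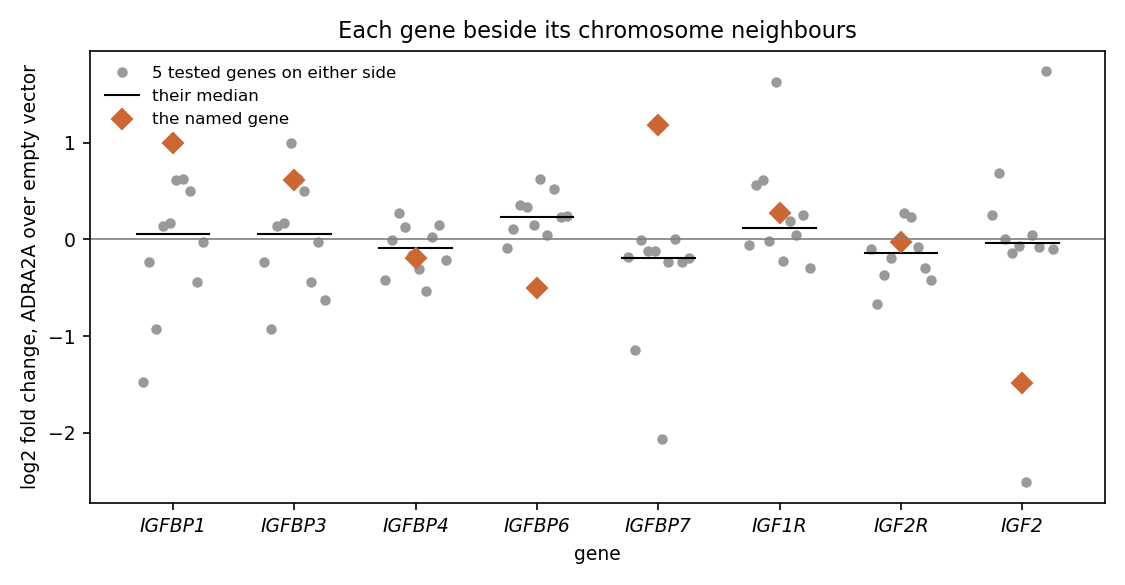
Log2 fold change, ADRA2A over empty vector, of 8 IGF axis genes (orange diamonds) and of the 5 tested genes on either side of each on its chromosome (grey points, in chromosome order, with a bar at their median). IGFBP7 lies above 0 where the median of its neighbours is -0.19, IGFBP6 lies below 0 where the median is 0.24, and the grey point furthest down beside IGF2 is AC132217.1, which lies inside that gene.

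The genes whose log2 CPM followed IGFBP7 most closely over the 8 libraries, among 10159 tested genes with a mean of at least 10 CPM, were IFITM2, COL17A1, NDRG2, ADH1C and LINC02381. Their Pearson correlations with IGFBP7 lay between 0.9973 and 0.9979. COL17A1, a hemidesmosome collagen gene, had 64.0 ± 3.32 and 145.7 ± 3.95 CPM, and the alcohol dehydrogenase gene ADH1C had 81.0 ± 5.44 and 198.8 ± 3.44 CPM (SD, n = 4 each, empty vector and then ADRA2A). Such correlations mostly reflect the gap between the 2 groups: 655 genes (6.45%) had a correlation of at least 0.95. Among the members with a mean of at least 10 CPM, IGFBP1 had a correlation of 0.992, IGFBP3 0.987 and IGF1R 0.859. The others were negative, with -0.991 for IGF2, -0.947 for IGFBP6, -0.906 for IGFBP4 and -0.374 for IGF2R.

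Other genes of the pathway were described from 8 lists. Of 96 genes 77 were tested, and 46 (59.7%) had an edgeR adjusted p-value under 0.05, with 22 higher and 24 lower in the ADRA2A cells, against 42.7% of all genes tested. Their median log2 fold change was 0.05, near the 0.00 of all genes tested, and their median absolute log2 fold change was 0.20 against 0.18. The median of single lists ranged more widely and is given with each. The lists were chosen with earlier results of these data known, so nothing about the pathway is read from the share of genes called.

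Of the ligands and related receptors, 1 of 7 genes was tested. IGF1, INS, INS-IGF2 and INSRR had 0 counts in all 8 libraries, which together held 127337492 counts and so allow a level of up to 0.0236 CPM. INSR, the insulin receptor, had 6.15, 7.19, 7.73 and 7.33 CPM with the empty vector and 11.4, 11.6, 12.2 and 12.8 CPM with ADRA2A. The groups did not overlap, and INSR rose by 0.76 ± 0.10 on the log2 scale (SE; edgeR adjusted p = 5.90e-06). Per length INSR stayed far below IGF1R, with 0.655 ± 0.062 and 1.11 ± 0.06 CPM per kb (SD, n = 4 each).

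Among proteases that cleave IGFBPs and their inhibitors, 9 of 12 genes were tested, with 4 higher, 3 lower and a median log2 fold change of 0.06. The 3 that fell were PAPPA and both stanniocalcins, which inhibit it. PAPPA went from 4.32 ± 0.91 to 2.35 ± 0.14 CPM (SD, n = 4 each; log2 fold change -0.88 ± 0.19, SE; edgeR adjusted p = 0.00108). STC2 had 256.9, 244.5, 288.9 and 263.6 CPM with the empty vector and 163.7, 170.1, 159.4 and 156.3 CPM with ADRA2A. STC2 thus fell without overlap (log2 fold change -0.70 ± 0.05, SE; edgeR adjusted p = 2.25e-10), and STC1 fell from 10.5 ± 1.11 to 7.26 ± 1.00 CPM (SD, n = 4 each; edgeR adjusted p = 0.00115). ADAM28, a membrane metalloprotease that cleaves IGFBP3, rose from 69.3 ± 5.59 to 155.3 ± 15.8 CPM (SD, n = 4 each; log2 fold change 1.16 ± 0.07, SE; edgeR adjusted p = 2.60e-11). The matrix protease MMP7 rose from 1355 ± 81.6 to 1858 ± 43.8 CPM (SD, n = 4 each; edgeR adjusted p = 4.42e-09). ADAM9 and the lysosomal protease CTSD did not pass the test, at log2 fold changes of 0.06 ± 0.03 and 0.00 ± 0.03 (SE).

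Of 13 other genes whose proteins carry an IGFBP-type N-terminal domain, 7 were tested, with 2 higher, 4 lower and a median log2 fold change of -0.45. CCN1 had 404.2, 411.2, 415.8 and 382.6 CPM in the empty-vector libraries and 263.5, 264.9, 256.5 and 252.0 CPM in the ADRA2A libraries. This matricellular gene fell by 0.64 on the log2 scale (SE 0.03; edgeR adjusted p = 1.70e-11), and its relative CCN2 fell from 87.8 ± 1.56 to 64.5 ± 3.17 CPM (SD, n = 4 each; edgeR adjusted p = 1.15e-07). CRIM1 rose by 0.13 ± 0.03 on the log2 scale (SE; edgeR adjusted p = 0.0045). HTRA1, a secreted serine protease on this list and on that of proteases, rose by 0.41 ± 0.14 (log2 fold change, SE; edgeR adjusted p = 0.0247). That call was lost with DESeq2 (adjusted p = 0.0628) and when empty-vector replicate 1 or 4 or ADRA2A replicate 1 or 4 was left out (edgeR adjusted p = 0.0641, 0.0669, 0.0799 and 0.0737), and its adjusted p ranged from 0.00922 to 0.0799 over all alternatives.

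The IGF2 mRNA-binding proteins, fetal RNA-binding proteins often re-expressed in tumours, were all expressed. IGF2BP2 rose from 139.4 ± 4.61 to 158.8 ± 2.33 CPM (SD, n = 4 each; log2 fold change 0.19 ± 0.04, SE; edgeR adjusted p = 0.000328), and IGF2BP1 and IGF2BP3 did not pass the test, at log2 fold changes of -0.05 ± 0.05 and 0.07 ± 0.04 (SE). H19, the imprinted non-coding neighbour of IGF2, had 0 counts in all 8 libraries.

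Of 12 adaptors and phosphatases at the receptor, 11 were tested, with 3 higher, 3 lower and a median log2 fold change of -0.02. IRS1, the main docking protein of IGF1R, rose from 303.2 ± 7.30 to 358.0 ± 13.9 CPM (SD, n = 4 each; log2 fold change 0.24 ± 0.04, SE; edgeR adjusted p = 1.52e-05), whereas IRS2 was at -0.09 ± 0.05 (edgeR adjusted p = 0.198). SHC1, which links the receptor to RAS, rose by 0.32 ± 0.03 on the log2 scale (SE; edgeR adjusted p = 3.35e-07), and the adaptor SH2B1 by 0.24 ± 0.06 (SE; edgeR adjusted p = 0.00276). GRB10, an adaptor that inhibits the insulin and IGF1 receptors, had 37.4, 34.0, 39.4 and 35.8 CPM with the empty vector and 21.3, 22.4, 23.3 and 19.99 CPM with ADRA2A. It fell the furthest of the list, by 0.75 on the log2 scale (SE 0.07; edgeR adjusted p = 2.13e-08), with no overlap. Its relative GRB14 fell by 0.29 ± 0.11 on the log2 scale (SE; edgeR adjusted p = 0.0383). The GRB14 call was lost with DESeq2 (adjusted p = 0.0952) and in 5 of the 8 fits without 1 library. Those left out empty-vector replicate 1, 3 or 4 or ADRA2A replicate 2 or 3 (edgeR adjusted p = 0.155, 0.059, 0.0671, 0.0926 and 0.111), and the adjusted p of GRB14 ranged from 0.0127 to 0.155 over all alternatives.

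All 25 genes of the PI3K-AKT-mTOR-FOXO chain were tested, with 5 higher, 7 lower and a median log2 fold change of 0.05. PIK3R3, a regulatory subunit of PI3K, rose from 31.8 ± 0.86 to 54.2 ± 2.55 CPM (SD, n = 4 each; log2 fold change 0.77 ± 0.05, SE; edgeR adjusted p = 4.92e-10). The catalytic subunit gene PIK3CB rose by 0.44 ± 0.04 on the log2 scale (SE; edgeR adjusted p = 1.94e-08). EIF4EBP1, a repressor of translation that mTOR inactivates, fell by 0.31 ± 0.06 on the log2 scale (SE; edgeR adjusted p = 0.000446).

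Of 15 genes that FOXO factors switch on, 13 were tested, with 4 higher, 5 lower and a median log2 fold change of -0.01. SOD2, the mitochondrial superoxide dismutase gene, rose by 0.64 ± 0.06 on the log2 scale (SE; edgeR adjusted p = 4.42e-08), and the pro-apoptotic gene BCL2L11 by 0.53 ± 0.09 (SE; edgeR adjusted p = 9.69e-05). CCNG2 and CITED2 fell by 0.30 ± 0.04 and 0.24 ± 0.08 on the log2 scale (SE; edgeR adjusted p = 2.62e-06 and 0.0144). The genes of this list that passed the test thus went in both directions.

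For the mannose 6-phosphate sorting machinery, in which IGF2R works, all 9 genes were tested, with 3 higher, 2 lower and a median log2 fold change of 0.02. GNPTG and GNPTAB, subunits of the enzyme that makes the mannose 6-phosphate tag, rose by 0.42 ± 0.06 and 0.22 ± 0.05 on the log2 scale (SE; edgeR adjusted p = 8.59e-06 and 0.00287). VPS35, a retromer subunit, and GGA3, a sorting adaptor, fell by 0.27 ± 0.04 and 0.23 ± 0.06 on the log2 scale (SE; edgeR adjusted p = 6.39e-06 and 0.00269).

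**Figure D5:**
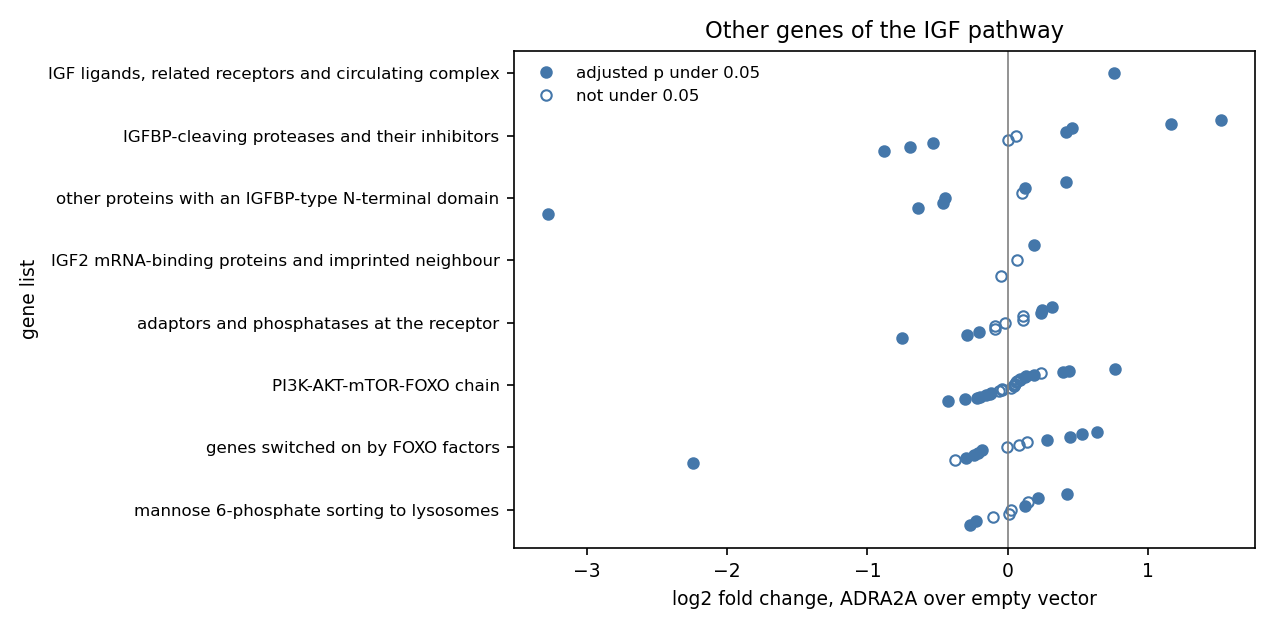
Log2 fold change, ADRA2A over empty vector, of the 77 tested genes of the 8 pathway lists (HTRA1 appears in 2 lists), with filled circles for an edgeR adjusted p-value under 0.05 and open circles for the others. Most points lie within 0.5 of 0, and the circle furthest left is IGFBPL1 at -3.28.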

How the data were processed

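RNA sequencing of 8 CFPAC-1 samples was analysed, 4 with an empty vector and 4 with the ADRA2A transgene, with groups and replicate numbers from the sample titles. The authors deposited 1 table of RSEM expected counts per gene, unscaled, with decimals in 4.61% to 4.90% of entries. The submitters' processing notes name cutadapt, STAR, RSEM and DESeq2 and the build hg38, while versions, annotation and use of strand are not given in the sources used here. Without strand, genes that overlap on opposite strands cannot be told apart. All 8 value columns matched a title.

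Counts were rounded, and genes were kept by filterByExpr. Library sizes were scaled by TMM (factors 0.9938 to 1.0055), and the groups were compared with edgeR 4.0.16 (quasi-likelihood test, R 4.3.3), with Benjamini-Hochberg adjustment over all 14785 genes tested and a threshold of 0.05. The procedure was tested on simulated data. The SE is the absolute log2 fold change over the square root of F. CPM uses TMM-scaled totals of the tested genes. Positions and lengths come from GENCODE release 44, to which 99.4% of identifiers matched. Alternatives used RLE or upper quartile factors, DESeq2 1.42.0, limma 3.58.1 (voom), other filters, a replicate block, and each library left out.

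The members and lists were chosen with earlier results of these data known. Besides the members, 8 fixed pathway genes were named, with the 2 highest and 2 lowest log2 fold changes of each list that passed the threshold and averaged 5 CPM or more in one of the groups, the 5 genes closest to IGFBP7, and chromosome neighbours. 1 gene that this rule names is not reported here. Intervals on a count of 0 allow 3 counts and cover counting error only.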

Additional observations from a re-analysis of the deposited data

Results flagged for a closer look

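The CPM of each tested member and named pathway gene was examined for a library apart from the other 3 of its group (Dixon's criterion at the 95% level), in 76 groups of 4. Chance flags about 1 in 20 groups, and 2 had such a library. IGFBP4 had 287 CPM in ADRA2A replicate 3, where the other ADRA2A libraries lay between 263 and 266 CPM. Without that library the log2 fold change of IGFBP4 was -0.22 with an SE of 0.04, against -0.19 with it. PIK3R3 had 33.1 CPM in empty-vector replicate 3, where the others all rounded to 31.4 CPM.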

How the results depend on the processing

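Over the 15 alternative fits the log2 fold change of IGFBP7 ran from 1.17 to 1.21 and that of IGFBP5 from -2.90 to -2.75, which are descriptions, since the genes were picked from this contrast. The number of genes called over the table lay between 5615 (DESeq2) and 6550 (no filter) around 6314, and between 5703 and 6042 without 1 library. Summing IGF2 with INS-IGF2 left its value as it was, since it had 0 counts. Per kilobase of the longest transcript in place of merged exons, levels moved beyond 1 SD for IGFBP3 (144 CPM per kb with the empty vector and 221 with ADRA2A), IGFBP6 (63.6 and 44.7), IGFBP7 (53.8 and 122), IGF1R (10.0 and 12.1), IGF2R (10.8 and 10.6) and IGF2 (11.7 and 4.2), because that length is shorter. Among named pathway genes, the calls of GRB14 and HTRA1 were lost under the alternatives given with their values. In the labels, same-numbered libraries of the 2 groups share only a number. Their deviations from the group means correlated at -0.02, -0.04, 0.07 and -0.02 for replicates 1 to 4. Whether same-numbered libraries shared a batch was not tested. With a replicate block 6400 genes were called, and IGFBP7 had a log2 fold change of 1.19. Depth limits IGFBP2, which had at most 2 counts in a library.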

Other observations

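IGFBPL1 and SESN3 were under the level set for naming genes and were singled out after their values were seen. IGFBPL1, an IGFBP-like gene, fell from 1.15 ± 0.17 to 0.115 ± 0.070 CPM (SD, n = 4 each; log2 fold change -3.28 ± 0.45, SE; edgeR adjusted p = 7.75e-06), with at most 23 counts in a library. SESN3, a stress-response gene that FOXO factors switch on, fell from 2.01 ± 0.34 to 0.426 ± 0.283 CPM (SD, n = 4 each; log2 fold change -2.24 ± 0.36, SE; edgeR adjusted p = 4.24e-05). AIRN, the antisense transcript inside IGF2R, had 0 counts in every library.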
